A study of Mus musculus with 4 samples.

Results

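The 42 genes described here encode integrins, the proteins of the focal adhesion plaque, regulators of actin assembly, the cytoplasmic actins, and contractile proteins of the actomyosin bundles. They were taken as a list by name, and no measured value entered the rule, but earlier results of these data were known. The list was looked up among the gene names of the array probes. Of the 42, 30 had a probe with a value on all 4 arrays and were tested among 4754 such genes. The 30 comprised 4 of 7 receptors, 11 of 15 plaque genes, 5 of 8 actin regulators, both cytoplasmic actins and 8 of 10 contractile genes.

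RNA came from NIH 3T3 cells, an established mouse fibroblast line. Each array compared Cy5-labelled RNA of cells carrying a knockdown construct with Cy3-labelled RNA of cells carrying the pU6-m3 vector alone. The construct siSelT-1 targets nucleotides 205 to 224 of the Selt transcript, which encodes selenoprotein T, and siSelT-5 targets nucleotides 971 to 989, with 2 arrays for each. All cells, the vector controls included, had been selected in 150 µg/ml hygromycin B and were kept in DMEM with 10% serum and 100 nM sodium selenite. The labels state that replicate arrays used separate cultures harvested at different times, but not whether a transfected line was 1 clone or a mixed population, nor whether arrays shared vector RNA. The comparison asks how transcripts of the adhesion machinery stood in cells with less selenoprotein T.

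Integrins are paired alpha and beta chains that span the plasma membrane and bind matrix proteins such as fibronectin outside the cell. Inside, talin, vinculin, paxillin, alpha-actinin and filamin connect their tails to actin filaments, and small GTPases such as Rac1, RhoA and Cdc42 set where filaments grow or contract. In cultured fibroblasts these links form focal adhesions at the ends of stress fibres, which are bundles of actin, tropomyosin and non-muscle myosin II.

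Values are log2 ratios of knockdown over vector after each array's median was set to 0. Centring used the 7038 probes that every array measured. Their median had stood at 0.19 and 0.09 in the deposited ratios of siSelT-1, and at 0.43 and 0.36 in those of siSelT-5. "Higher" and "lower" therefore mean relative to the median of those 7038 probes on the same array. The ratio as deposited, without centring, is given where it turns a direction or a call. Over all values of an array, the deposited medians were 0.18 and 0.06 with siSelT-1, and -0.22 and -0.19 with siSelT-5. On the siSelT-5 arrays, 0 on the centred scale therefore lies above the median of all values. Of 22534 probes, the arrays of siSelT-1 held 7689 and 9232 values, and those of siSelT-5 held 20268 and 18361. The base of the logarithm and the direction of the ratio are not stated in the labels: base 2 and knockdown over vector were read from the value range, the titles and the dyes. The knockdown RNA carried the same dye throughout, so a dye effect of a probe cannot be told apart from a change against vector. No probe was named for the targeted gene, so its own level was not analysed here. In RNA of whole cultures, fewer cells of a kind and less RNA per cell cannot be told apart. Of 12 fibroblast markers, 8 were measured on all arrays (2 higher, 4 lower), and none of 6 epithelial or 5 skeletal muscle markers was. For both constructs neither of the 2 smooth muscle markers measured of 6 passed, Lyz2 was lower as the only measured macrophage marker of 6, and both measured adipocyte markers of 5 were higher. The 3 of 6 endothelial markers measured (Cd34, Pecam1 and Tie1) were higher by 0.43 to 0.46, while Cdh5, Kdr and Tek had no value on all 4 arrays; the part of other cell types in the results below was not tested.

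For the mean of both constructs, members of the adhesion system passed in both directions. That test takes its spread from within the constructs, so a gene can pass with siSelT-1 near 0, as Itgbl1 and Arpc2 did. The actin regulators Rac1, Cfl2 and Arpc2, the cytolinker Plec, the actin gene Actb and the myosin heavy chain gene Myh9 were higher. The integrin-like gene Itgbl1, the plaque genes Tln1, Ilk, Actn4 and Flna, and the actin gene Actg1 were lower. These 6 higher and 6 lower members of 30 stood beside a background of 20.5% higher and 21.9% lower, 42.4% in all, among the 4754 genes (limma, adjusted p under 0.05). The members as a group were thus called about as often as other genes, and the results are the individual genes and the medians of the tested members of each role. With a single mean over the 4 arrays, whose spread holds the distance between constructs, 5 members and 24% of all genes passed.

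On the scale as deposited, all 6 higher members passed again, and Itgbl1 alone of the 6 lower ones did. Tln1, Ilk, Actn4, Flna and Actg1 stayed below 0 there without passing, and 9 further members passed as higher (Itgb1, Itgb5, Pxn, Zyx, Tagln2, Cnn2, Myl9, Tpm1 and Tpm2), against backgrounds of 45.7% higher and 8.04% lower (53.7% in all). Without either siSelT-1 array limma called 0 members on the centred scale, with 10 and 7 at an unadjusted p under 0.05 and no other gene called either. It called 19 without the first siSelT-5 array, when 63.1% of all genes passed.

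Roles differed in their medians. The 5 actin regulators had a median of 0.36 ± 0.35 (SD over the 4 arrays). It was 0.63 as deposited and 0.072 when each probe was taken on its own; Rac1, Cfl2 and Arpc2 had 1 complete probe each, Rhoa 2 and Cdc42 3. Cfl1 and Pfn1 had no siSelT-1 value and Arpc3 no probe, so the regulator median leaves them out. The 43 further actin regulators outside the list had a median of 0.03, with 8 higher and 11 lower, beside 20.5% and 21.9% of all genes. For the 11 plaque genes the median was -0.24 ± 0.09, and this sign turned to 0.03 as deposited. The other roles lay near the median of all genes (-0.02), with -0.02 ± 0.14 for receptors, -0.05 ± 0.25 for the actins and 0.12 ± 0.31 for the contractile genes; as deposited these were 0.24, 0.22 and 0.39, and the contractile median was 0.041 with the arrays scaled to a common spread. The distance between actin regulators and plaque, which no centring can move, was 0.20 and 0.22 with siSelT-1, and 0.58 and 1.06 with siSelT-5. That pair of roles was picked after the values were seen, and the distance was not tested.

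**Figure D1:**
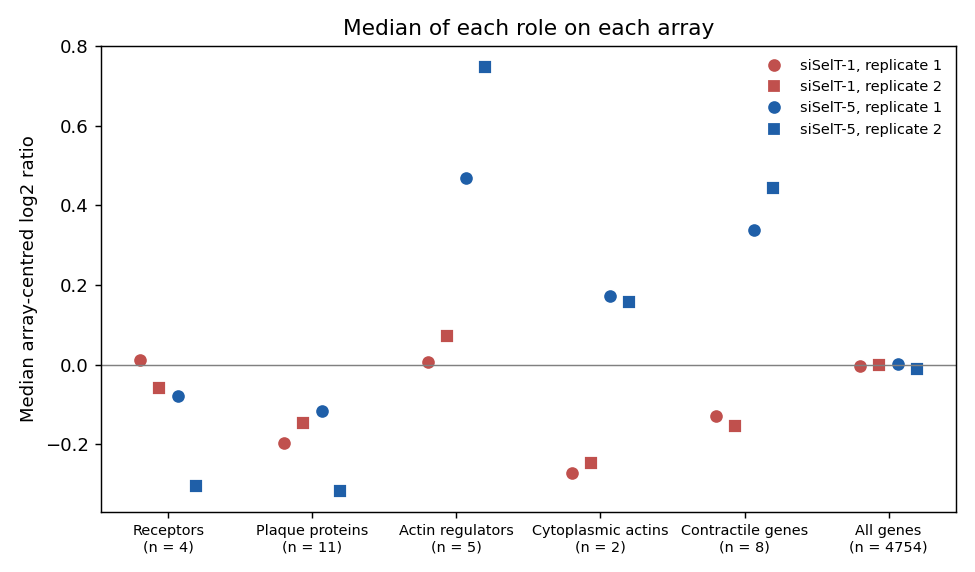
Median array-centred log2 ratio of the tested members of each role on each of the 4 arrays, beside the median of all tested genes. Actin regulators lie at 0.47 and 0.75 on the siSelT-5 arrays and near 0 on the siSelT-1 arrays, contractile genes below 0 with siSelT-1 and above it with siSelT-5 on this centred scale, and plaque genes lie below 0 on all 4 centred arrays.

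**Figure D2:**
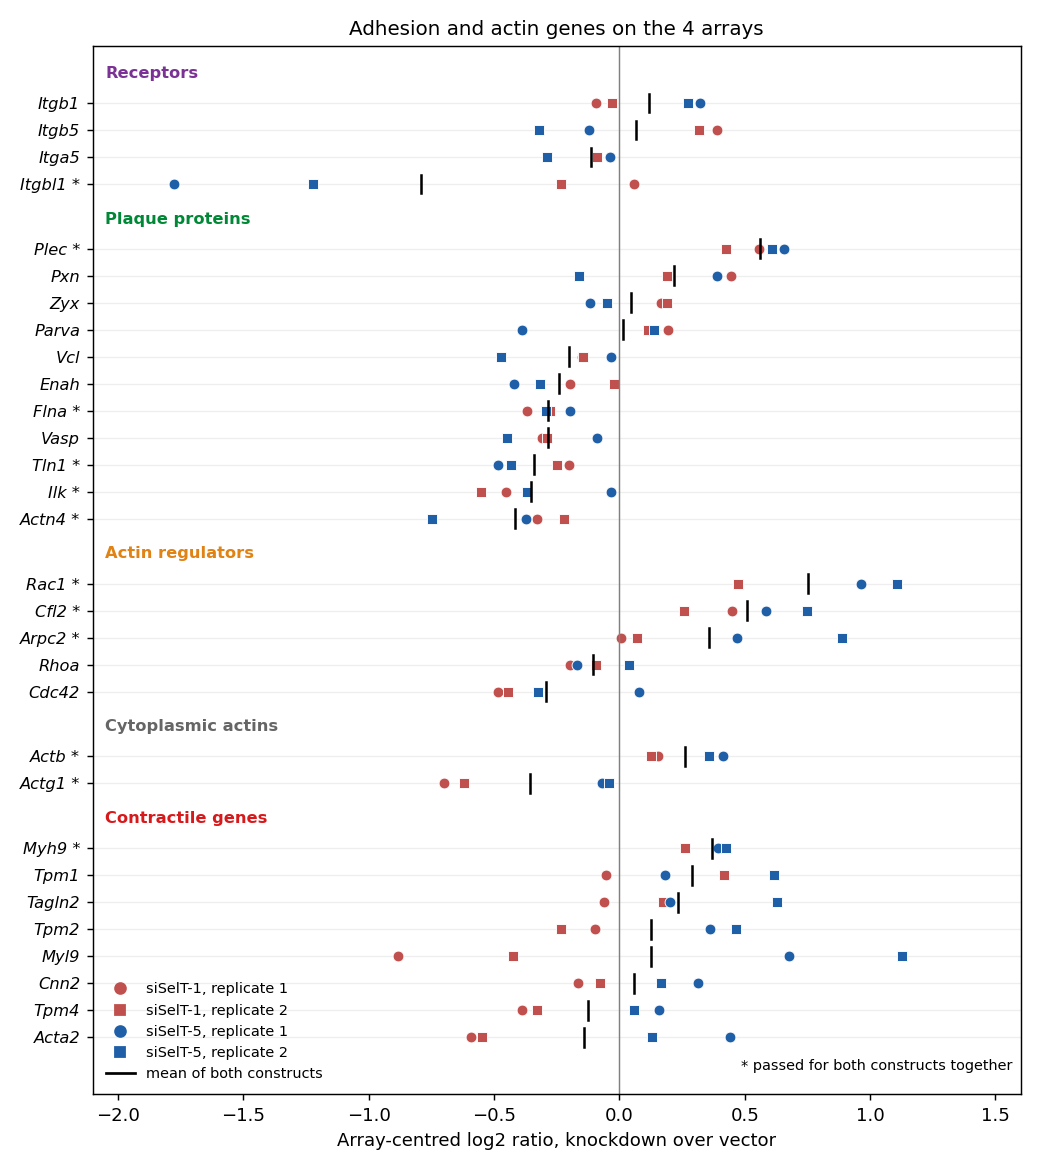
Array-centred log2 ratio of each of the 30 tested members on each array, grouped by role, with the mean of both constructs as a line and an asterisk on the 12 genes that passed for both constructs together. Rac1 and Plec lie to the right of 0 on every array, and Itgbl1 reaches -1.78 on a siSelT-5 array.

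None of the 3 true integrin chains measured passed for both constructs together after centring, whereas as deposited Itgb1 (0.39; limma, adjusted p = 0.00933) and Itgb5 (0.33; adjusted p = 0.0235) were higher. Itgb1, the beta chain shared by most matrix-binding integrins, was at -0.09 and -0.03 on the siSelT-1 arrays and at 0.32 and 0.27 on the siSelT-5 arrays. Its mean was 0.12 ± 0.21 (SD, n = 4; limma, adjusted p = 0.206). The 2 Itgb1 probes opposed each other. The first was higher at 0.40 (limma, adjusted p = 0.0154) and the other was at -0.16 (adjusted p = 0.128). Itgb5, which pairs with the alpha v chain in a vitronectin receptor, went the other way, at 0.39 and 0.32 with siSelT-1, and at -0.12 and -0.32 with siSelT-5. The siSelT-1 minus siSelT-5 difference was -0.36 for Itgb1 (95% interval -0.70 to -0.01) and 0.57 for Itgb5 (0.20 to 0.95). Neither difference passed (limma, adjusted p = 0.184 and 0.118), although the arrays of the constructs did not overlap for either gene. Itga5, the alpha chain of the classical fibronectin receptor, stayed within -0.29 and -0.04 on all arrays, with a mean of -0.11 ± 0.12 (adjusted p = 0.283) that turned to 0.15 as deposited (adjusted p = 0.202). For siSelT-5 alone Itgb1 was at 0.30 (adjusted p = 0.0598), and it was higher as deposited, at 0.69 (adjusted p = 0.00452).

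Itgbl1 encodes a protein with the EGF-like repeats of an integrin beta chain but is not itself a matrix receptor chain. Its ratios were 0.06 and -0.23 with siSelT-1 and -1.78 and -1.22 with siSelT-5. The siSelT-5 arrays were thus both well below the siSelT-1 arrays, which lay on either side of 0. The mean of both constructs was -0.79 ± 0.85 (SD, n = 4, limma, adjusted p = 0.00832). That of siSelT-5 alone was -1.50, a 0.354-fold ratio on the centred scale (adjusted p = 0.00707), or -1.10 as deposited. For siSelT-1 it was -0.09 (adjusted p = 0.749). The difference of 1.41 between the constructs (95% interval 0.80 to 2.02) had an adjusted p of 0.0976. As deposited, Itgbl1 was at -0.53 and passed (adjusted p = 0.0147).

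Of the 11 plaque genes, 4 were lower and 1 was higher, beside 21.9% and 20.5% of all genes, and 6 did not pass. Tln1 encodes talin-1, which binds integrin beta tails and activates them. It was at -0.20 and -0.25 on the siSelT-1 arrays and at -0.48 and -0.43 on the siSelT-5 arrays, below 0 on all 4. The mean was -0.34 ± 0.14 (SD, n = 4; limma, adjusted p = 0.0157), against -0.07 as deposited (adjusted p = 0.453). With 26 probes on all 4 arrays, Tln1 was also the member with the most probes. Their means over both constructs ran from -1.02 to 0.30, with 23 below 0 and 3 above. Tested singly, 11 of these probes were lower, 1 was higher and 14 did not pass.

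Actn4, an alpha-actinin that crosslinks actin filaments, was at -0.33 and -0.22 with siSelT-1 and at -0.37 and -0.75 with siSelT-5. The mean of -0.42 ± 0.23 passed (SD, n = 4; limma, adjusted p = 0.0202), and as deposited it was -0.15 (adjusted p = 0.249). Among its 4 probes, 3 were lower and the other, at 0.26, did not pass (adjusted p = 0.0531). Flna encodes filamin A, which crosslinks actin and binds integrin tails, and its 4 ratios lay close together at -0.37, -0.28, -0.20 and -0.29. Its mean was -0.28 ± 0.07 (adjusted p = 0.0279), but as deposited it was at -0.02 (adjusted p = 0.865).

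Ilk, the integrin-linked pseudokinase that joins beta tails to parvin and PINCH, was at -0.45 and -0.55 with siSelT-1 and at -0.03 and -0.37 with siSelT-5. All 4 arrays were below 0 and those of siSelT-1 the lowest, with a mean of -0.35 ± 0.23 (SD, n = 4; limma, adjusted p = 0.0283). The ratio was -0.08 as deposited (adjusted p = 0.510). One Ilk probe was lower at -0.57 (adjusted p = 0.0163) and the other was at -0.13 (adjusted p = 0.283). Parva, its parvin partner, ranged from -0.39 to 0.19 with a mean of 0.02 (adjusted p = 0.918).

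Plec was the higher plaque member. It encodes plectin, a very large protein that ties intermediate filaments to actin and to integrin-based junctions. Its ratios were 0.56 and 0.43 with siSelT-1 and 0.66 and 0.61 with siSelT-5, so that every array stood above 0. The mean was 0.56 ± 0.10 (SD, n = 4; limma, adjusted p = 0.00594), a 1.48-fold ratio. It was the only member called higher for each construct on its own, at 0.49 for siSelT-1 (adjusted p = 0.0484) and 0.63 for siSelT-5 (adjusted p = 0.0113). The siSelT-1 call lay close to the threshold and was lost with the replicate block (adjusted p = 0.0521), a common spread (0.0602), centring on all values (0.0539) and the looser filter on missing values (0.0785). Both Plec probes on all 4 arrays were higher, at 0.36 and 0.77. A further 10 Plec probes had values on siSelT-5 arrays without a full set on the others, and all 10 were below 0 there, between -1.56 and -0.46. The ratio reported for Plec therefore rests on the 2 complete probes.

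The Ena/VASP proteins, which promote filament elongation, fell short of the threshold for both constructs together. Vasp was at -0.31 and -0.29 with siSelT-1 and at -0.09 and -0.45 with siSelT-5, and its mean of -0.28 had an adjusted p of 0.0508 (limma). Enah, at -0.20, -0.02, -0.42 and -0.32 in the same order, had a mean of -0.24 (adjusted p = 0.0517), against 0.03 as deposited. For siSelT-5 alone Enah was lower, at -0.37 (adjusted p = 0.0438), but it was at 0.02 as deposited, and the call was lost with the replicate block (adjusted p = 0.0526). The probes of each gene disagreed. A Vasp probe was lower at -0.78 while the other was at 0.22, and the 4 Enah probes ran from -1.07 to 0.42, 2 of them lower.

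The remaining plaque genes gave no call after centring, for both constructs or for either alone, but Pxn (0.48; limma, adjusted p = 0.0247) and Zyx (0.31; adjusted p = 0.0171) were higher for both constructs as deposited. Vcl, which encodes vinculin, was at -0.15 on both siSelT-1 arrays and at -0.03 and -0.47 with siSelT-5 (mean -0.20; limma, adjusted p = 0.149), and its mean turned to 0.07 as deposited. Pxn, the gene of the adaptor paxillin, ranged from -0.16 to 0.45 (mean 0.22; adjusted p = 0.185). Zyx encodes zyxin, a LIM protein of mature adhesions, and was at 0.17 and 0.19 with siSelT-1 and at -0.12 and -0.05 with siSelT-5 (mean 0.05; adjusted p = 0.593).

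Among the actin regulators, 3 of the 5 tested were higher (limma), beside the background of 20.5%, and Cdc42 and Rhoa did not pass. Of the 43 further regulators described below, 8 were higher and 11 lower. Rac1, the GTPase that drives lamellipodia, had the smallest p of all members. Its ratio was 0.47 on each array of siSelT-1, against 0.96 and 1.11 with siSelT-5. All 4 arrays were above 0 and those of siSelT-5 were the higher pair. The mean was 0.75 ± 0.33 (SD, n = 4; limma, adjusted p = 0.00430), a 1.69-fold ratio. For siSelT-5 alone it was 1.04, or 2.05-fold (adjusted p = 0.00653), and for siSelT-1 0.47 (adjusted p = 0.0513). The difference of -0.56 between constructs (95% interval -0.92 to -0.21) did not pass (adjusted p = 0.118).

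Cdc42, which governs filopodia and polarity, was at -0.48 and -0.44 with siSelT-1 and at 0.08 and -0.33 with siSelT-5 (mean -0.29; limma, adjusted p = 0.0545). Rhoa, which promotes stress fibres, ranged from -0.20 to 0.04 (mean -0.10; adjusted p = 0.308), and its mean turned to 0.16 as deposited (adjusted p = 0.126), where siSelT-5 alone was higher (0.33; adjusted p = 0.0484). Rac1 exceeded Cdc42 on every array, by 0.96, 0.91, 0.88 and 1.43 on the log2 scale. It exceeded Rhoa by 0.86 ± 0.28 (SD, n = 4). These distances within an array do not depend on centring; the pairs were chosen after the values were seen and were not tested. The 3 Cdc42 probes themselves spread from -0.84 to 0.22, with 2 lower and 1 not passed.

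Cfl2 encodes cofilin-2, a filament-severing protein best known from muscle. It was at 0.45 and 0.26 with siSelT-1 and at 0.58 and 0.75 with siSelT-5, above 0 on every array. The mean was 0.51 ± 0.21 (SD, n = 4; limma, adjusted p = 0.00856), a 1.42-fold ratio, and for siSelT-5 alone it was 0.67 (adjusted p = 0.0122). A further Cfl2 probe, with values on the siSelT-5 arrays alone, stood at -1.51 there. Arpc2, a core subunit of the Arp2/3 complex that branches actin, was at 0.01 and 0.07 with siSelT-1 and at 0.47 and 0.89 with siSelT-5. Its mean of 0.36 ± 0.41 passed (adjusted p = 0.0335), as did 0.68 for siSelT-5 (adjusted p = 0.0175), whereas siSelT-1 gave 0.04 (adjusted p = 0.860). The Arpc2 difference of -0.64 between constructs had a 95% interval of -1.12 to -0.16 and did not pass.

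The cytoplasmic actins, whose proteins are almost the same in sequence, went in opposite directions on the centred scale. Actb, beta-actin, was at 0.16 and 0.13 with siSelT-1 and at 0.41 and 0.36 with siSelT-5. Its mean was 0.26 ± 0.14 (SD, n = 4; limma, adjusted p = 0.0308). Actg1, gamma-actin, was at -0.70 and -0.62 with siSelT-1 and at -0.07 and -0.04 with siSelT-5, for a mean of -0.36 ± 0.35 (adjusted p = 0.0142). It passed for siSelT-1 alone, at -0.66, a 0.633-fold ratio on the centred scale (adjusted p = 0.0313). For siSelT-5 it was at -0.06 (adjusted p = 0.666). As deposited, Actb remained higher at 0.53 (adjusted p = 0.00382), while Actg1 was at -0.09 over both constructs (adjusted p = 0.341). On that scale Actg1 was lower for siSelT-1, at -0.52 (adjusted p = 0.0380), and higher for siSelT-5, at 0.34 (adjusted p = 0.0400); the difference between constructs did not pass (adjusted p = 0.0543).

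Actb stood above Actg1 on every array whatever the centring, by 0.86 and 0.75 with siSelT-1 and by 0.48 and 0.40 with siSelT-5 (mean 0.62 ± 0.22, SD, n = 4). Actb rested on 6 probes, all above 0 (0.01 to 0.48), of which 3 were higher when tested singly. Of 16 further Actb probes with siSelT-5 values, 15 were above 0 and 1 was below. Actg1 rested on 1 probe. Probes for genes as alike as the actins may share signal, and this was not tested.

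No contractile gene passed the test of the difference between constructs, and the order of the arrays is given as a description. The siSelT-1 arrays of contractile genes lay wholly below the siSelT-5 arrays for 6 of 8, as for 4 of 5 actin regulators and both actins, and the other contractile and regulator genes overlapped. Of the plaque genes 2 lay wholly below and 4 wholly above. The counts were 15 below and 6 above among the 30 members, beside 32% and 28.3% of all genes. For 5 of the 8 (Acta2, Cnn2, Myl9, Tpm2 and Tpm4) every siSelT-1 array was below 0 and every siSelT-5 array above it. That pattern was found in 6.73% of all genes, and Itgb1 was the sixth such member. Itgb5 and Zyx had the opposite pattern, which 6.92% of all genes had. These are signs of gene means over probes, and no complete probe of Tpm2 or Itgb1 had the pattern alone. A Tpm2 probe was above 0 on all 4 arrays and the other below 0 on all 4. For Cnn2 and Tpm4 a probe had the pattern and the rest did not. No difference between constructs passed for any of the 30 members (limma, smallest adjusted p = 0.0932; 10 at an unadjusted p under 0.05), beside 0.0631% of all genes. The count of calls for the difference was not stable when a siSelT-5 array was left out. The lone array of that construct then has no spread of its own. Markers outside the list went in both directions. Postn, the fibroblast matrix protein periostin, was lower with siSelT-1 (-0.92; limma, adjusted p = 0.0268) and higher with siSelT-5 (1.24; adjusted p = 0.00645), and its difference of -2.17 passed (adjusted p = 0.0379). For the other fibroblast markers measured the difference ran from -0.72 for Dcn to 0.77 for Fn1, and none of them passed. Smtn, a smooth muscle marker, went the other way from Acta2 and Myl9. It was higher with siSelT-1 (0.56; limma, adjusted p = 0.0440) and at -0.09 with siSelT-5 (adjusted p = 0.544). Des, the other smooth muscle marker measured, was at 0.01 with siSelT-1 and 0.34 with siSelT-5, and neither passed. The part of these markers in the contractile values was not tested, and Postn and Smtn were named after their values were seen. As deposited, the contractile medians were -0.0022 with siSelT-1 and 0.80 with siSelT-5. There 6 of the 8 genes were higher for both constructs and all 8 for siSelT-5 (limma), beside 45.7% and 47.6% of all genes. After centring the counts were 1 and 3, beside 20.5% and 19.2%. Cnn2 then stood at 0.02 with siSelT-1 in place of -0.12.

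Myl9, the regulatory light chain of smooth muscle and non-muscle myosin II, had the largest difference between constructs among the members, which did not pass. Its ratios were -0.88 and -0.42 with siSelT-1 and 0.68 and 1.13 with siSelT-5. The constructs thus lay on opposite sides of 0, and the mean of both (0.12 ± 0.94, SD, n = 4) did not pass (limma, adjusted p = 0.439). For siSelT-5 alone Myl9 was higher at 0.90, a 1.87-fold ratio (adjusted p = 0.0164), and for siSelT-1 it was at -0.65 (adjusted p = 0.0743). The difference was -1.55, with a 95% interval of -2.17 to -0.94 (adjusted p = 0.0932). These values rested on 1 complete probe. A further Myl9 probe, measured on the first siSelT-5 array alone, was at 0.18 there, against 0.68 for the complete probe.

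Acta2, smooth muscle alpha-actin and the usual marker of myofibroblasts, was at -0.59 and -0.55 with siSelT-1 and at 0.44 and 0.13 with siSelT-5. It was lower for siSelT-1, at -0.57, a 0.675-fold ratio on the centred scale (limma, adjusted p = 0.0496). This call was lost as deposited (-0.43, adjusted p = 0.0835). For siSelT-5 it was at 0.29 (adjusted p = 0.108), and as deposited it was higher there (0.68, adjusted p = 0.00884). The mean of both constructs was -0.14 (adjusted p = 0.220), or 0.13 as deposited (adjusted p = 0.296). The difference of -0.85 had a 95% interval of -1.28 to -0.43 (adjusted p = 0.106). Both Acta2 probes were below 0 on the siSelT-1 arrays and above 0 on the siSelT-5 arrays.

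Tropomyosins wrap actin filaments and control myosin access. Tpm2 was at -0.10 and -0.23 with siSelT-1 and at 0.36 and 0.46 with siSelT-5, where it was higher (0.41; limma, adjusted p = 0.0299). Its 2 probes opposed each other, with means of 0.53, higher, and -0.27, lower. Tpm4 was at -0.39 and -0.33 with siSelT-1 and at 0.16 and 0.06 with siSelT-5, with a mean of -0.13 (adjusted p = 0.194) that turned to 0.14 as deposited (adjusted p = 0.177). The 3 Tpm4 probes ran from -0.66, which was lower, to 0.32, which did not pass. Tpm1 varied as much between replicates as between constructs, at -0.05, 0.42, 0.18 and 0.62 (mean 0.29; adjusted p = 0.107).

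The calponin and transgelin genes, whose products bind actin filaments in contractile cells, gave no call after centring, and both were higher for both constructs as deposited, at 0.33 for Cnn2 (limma, adjusted p = 0.0194) and 0.50 for Tagln2 (adjusted p = 0.00789). Cnn2 was at -0.16 and -0.08 with siSelT-1 and at 0.31 and 0.17 with siSelT-5, and its difference of -0.36 had a 95% interval of -0.73 to 0.0038. Tagln2 ranged from -0.06 to 0.63 (mean 0.24; limma, adjusted p = 0.119).

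Myh9, the heavy chain of non-muscle myosin IIA, was the contractile gene that passed for both constructs together. It was at 0.41 and 0.26 with siSelT-1 and at 0.39 and 0.42 with siSelT-5, overlapping between constructs and above 0 throughout. The mean was 0.37 ± 0.07 (SD, n = 4; limma, adjusted p = 0.0143), a 1.29-fold ratio. One of its 2 probes was higher at 0.58 and the other was at 0.16 without passing.

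**Figure D3:**
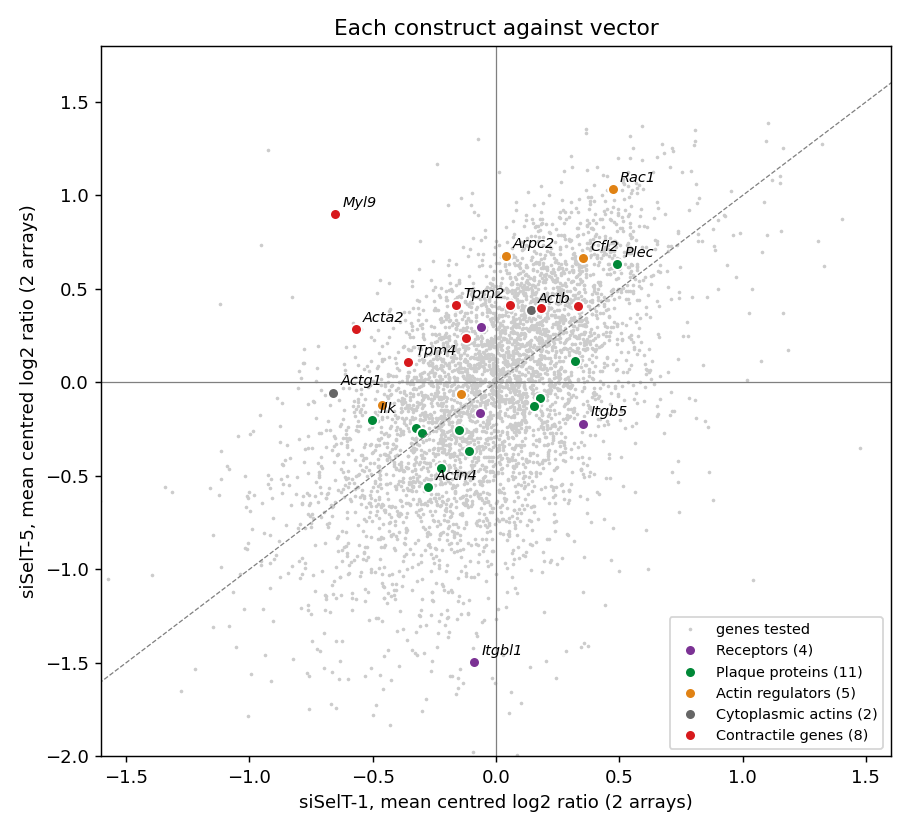
Mean array-centred log2 ratio of siSelT-1 (horizontal) against siSelT-5 (vertical), each over 2 arrays, with the 30 tested members coloured by role over the genes tested in grey; the dashed line marks equal ratios, and 20 of the 4754 genes fall outside the axes. Myl9 and Acta2 lie at the upper left, Itgbl1 near the bottom, and Rac1 at the upper right.

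Promoter sequences are shown for the members that hold an exact copy of the CArG box, the binding motif of serum response factor, a regulator long known for actin and contractile genes. The box was searched in the 250 bases before the annotated start of each gene in RefSeq (GRCm38.p6), and its pattern covers both strands because its reverse complement fits the same pattern. It was present in 4 of 33 members with a window (12.1%) and in 439 of 27025 genes with a window (1.62%). The members were chosen by function, and a match is a description of the letters, not a site. The 4 promoters follow 5′ to 3′ on the strand of the gene, without bases inside an annotated gene model at the 3′ end, and capitals mark the box. The stretches lie upstream of the genes Myl9 (chr2:156775214-156775407, plus strand), Cnn2 (chr10:79988350-79988599, plus strand), Actg1 (chr11:120348496-120348745, minus strand, overlapping the gene 0610009L18Rik) and Vcl (chr14:20929148-20929382, plus strand).
Myl9: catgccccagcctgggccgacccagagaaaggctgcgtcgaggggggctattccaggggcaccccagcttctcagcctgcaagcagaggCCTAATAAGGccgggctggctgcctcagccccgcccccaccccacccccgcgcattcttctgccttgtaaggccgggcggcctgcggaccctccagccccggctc
Cnn2: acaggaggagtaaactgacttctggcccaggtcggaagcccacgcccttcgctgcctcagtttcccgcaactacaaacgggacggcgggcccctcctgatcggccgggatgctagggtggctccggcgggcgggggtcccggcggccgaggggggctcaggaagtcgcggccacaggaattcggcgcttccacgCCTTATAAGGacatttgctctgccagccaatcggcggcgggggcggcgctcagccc
Actg1: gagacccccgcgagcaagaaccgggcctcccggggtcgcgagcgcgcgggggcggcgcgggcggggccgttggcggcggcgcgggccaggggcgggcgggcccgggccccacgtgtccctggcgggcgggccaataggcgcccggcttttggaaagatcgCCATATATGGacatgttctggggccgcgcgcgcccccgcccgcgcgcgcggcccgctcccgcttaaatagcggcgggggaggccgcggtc
Vcl: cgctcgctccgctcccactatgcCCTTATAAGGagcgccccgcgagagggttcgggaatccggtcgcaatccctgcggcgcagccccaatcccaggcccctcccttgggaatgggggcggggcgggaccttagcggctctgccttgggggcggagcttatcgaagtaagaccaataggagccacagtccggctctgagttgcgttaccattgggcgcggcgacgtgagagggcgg

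The printed stretches of Myl9 (194 bases) and Vcl (235 bases) stop at the gene model, short of the annotated start that closes the 250-base window. Counted from each gene's annotated start, the box began 161 bases upstream for Myl9, 56 for Cnn2, 90 for Actg1 and 227 for Vcl. With siSelT-1 their means were -0.65 for Myl9, -0.12 for Cnn2, -0.66 for Actg1 and -0.15 for Vcl, and with siSelT-5 they were 0.90, 0.24, -0.06 and -0.25. The signs with siSelT-5 depend on the centring: as deposited all 4 lay above 0, at 1.30, 0.63, 0.34 and 0.14, and Myl9, Cnn2 and Actg1 passed as higher (limma). Actg1 alone of the 4 passed for both constructs together after centring, and Myl9 and Cnn2 did as deposited.

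Taken by construct, siSelT-1 gave 1 higher member (Plec) and 2 lower (Actg1 and Acta2) of 30, beside 3.83% higher and 5.07% lower among all genes, or 8.9% in all (limma). Without either siSelT-1 array these 3 calls were lost. Without either siSelT-5 array 15 members passed, as did 45% of all genes. As deposited, Plec and Rac1 were higher and Actg1 lower, beside 10.3% and 3.37% of all genes (13.7% in all). siSelT-5 gave 8 higher members (Plec, Rac1, Cfl2, Arpc2, Actb, Myl9, Myh9 and Tpm2) and 4 lower (Itgbl1, Tln1, Actn4 and Enah), beside 19.2% higher and 20% lower (39.2% in all). Its count was lower without either siSelT-1 array, as was the share of all genes that passed. As deposited, siSelT-5 gave 16 higher members and 1 lower, beside 47.6% and 6.29% (53.9% in all). Shared vector RNA among arrays cannot be told from the labels, so no count of shared calls is read as agreement between constructs.

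The other genes of the pathway were taken from lists of each role. Among 27 of 42 further plaque genes measured, 2 were higher and 8 lower (limma, median -0.09), beside 20.5% and 21.9% of all genes. As deposited 8 were higher and 5 lower (median 0.18), beside 45.7% and 8.04%. The 3 with the smallest p were all lower: Tns1, the actin-capping adhesion protein tensin-1 (-0.84, adjusted p = 0.00430), Yes1, a Src family kinase (-0.69, adjusted p = 0.00554), and Nck1, an adaptor between tyrosine kinases and actin assembly (-1.17, adjusted p = 0.00605). The kinase Yes1 was at -0.13 and -0.39 for the siSelT-1 pair of arrays, and at -1.21 and -1.03 for the siSelT-5 pair, a difference of 0.86 that did not pass (adjusted p = 0.106).

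Of 43 further actin regulators measured among 59, 8 were higher and 11 lower (limma, median 0.03), beside 20.5% and 21.9% of all genes. As deposited 21 were higher and 6 lower (median 0.30), beside 45.7% and 8.04%. Some subunits of the same complexes stood apart. Capza1, an alpha subunit of the capping protein that seals filament ends, was at -1.36 and -1.27 with siSelT-1 and at -0.59 and -0.58 with siSelT-5 (mean -0.95, adjusted p = 0.00413). Capzb, the partner beta subunit, was higher at 0.59 (adjusted p = 0.00613). Capzb exceeded the mean of Capza1 and Capza2 on each array, by 1.39, 1.49, 1.11 and 1.39. Actr3, the Arp3 subunit of the Arp2/3 complex, was lower at -0.86 (adjusted p = 0.00430). The member Arpc2 of the same complex exceeded Actr3 by 1.22 ± 0.30 (SD, n = 4). The other subunits measured lay between this pair. Arpc5 was lower at -0.48 (limma, adjusted p = 0.0141), and Arpc1a, Arpc1b, Arpc4 and Arpc5l, from -0.14 to 0.17, did not pass. Evl, the third Ena/VASP gene, was lower at -0.62 (adjusted p = 0.00538). Capzb, Capza2 and these pairings were picked after their values were seen.

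Further contractile genes gave 2 higher and 3 lower of 11 measured among 25 (limma, median -0.03), beside 20.5% and 21.9% of all genes. As deposited 4 were higher, beside 45.7%. Cnn3, the acidic calponin, was higher at 0.39 (adjusted p = 0.0111), Vim, the intermediate filament protein vimentin, at 0.31 (adjusted p = 0.0212). Myh10, the heavy chain of non-muscle myosin IIB, was lower at -0.43 (adjusted p = 0.0246). Myh9 exceeded Myh10 on every array, by 1.21, 0.71, 0.46 and 0.80, a pair picked after its values were seen.

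Ligands of integrins had the lowest median of these lists, -0.34, with 6 lower and 1 higher of 11 measured among 22 (limma), beside 21.9% and 20.5% of all genes; as deposited the median was -0.08, with 5 lower and 2 higher. Thbs1, the matricellular protein thrombospondin-1, was at -1.32 and -1.15 with siSelT-1 and at -1.86 and -2.46 with siSelT-5 (mean -1.70, adjusted p = 0.00413). Fn1, fibronectin, the ligand of the Itga5 and Itgb1 pair, was lower at -0.87 (adjusted p = 0.00430), and Tnc, tenascin-C, at -0.95 (adjusted p = 0.00449). Further receptors and tetraspanins were little covered, with 4 of 25 measured and 1 higher, Cd9, a tetraspanin that associates with integrins (0.43, adjusted p = 0.0148).

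Probes of the same gene disagreed often among the members. Of 16 members with 2 or more complete probes, 7 (43.8%) had all probes on the same side of 0, and the median distance between the lowest and highest probe was 0.51. Among 942 other genes with several complete probes the share was 55.0% and the median distance 0.34, but members such as Tln1 had more probes, and more probes widen the range. The calls of Plec and Actb rested on probes of 1 sign, whereas those of Tln1 and Actn4 rested on probes of which 1 or more pointed the other way. Rac1, Cfl2, Arpc2, Itgbl1, Flna and Actg1 each rested on 1 complete probe, as did Myl9, which was called for siSelT-5 alone.

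**Figure D4:**
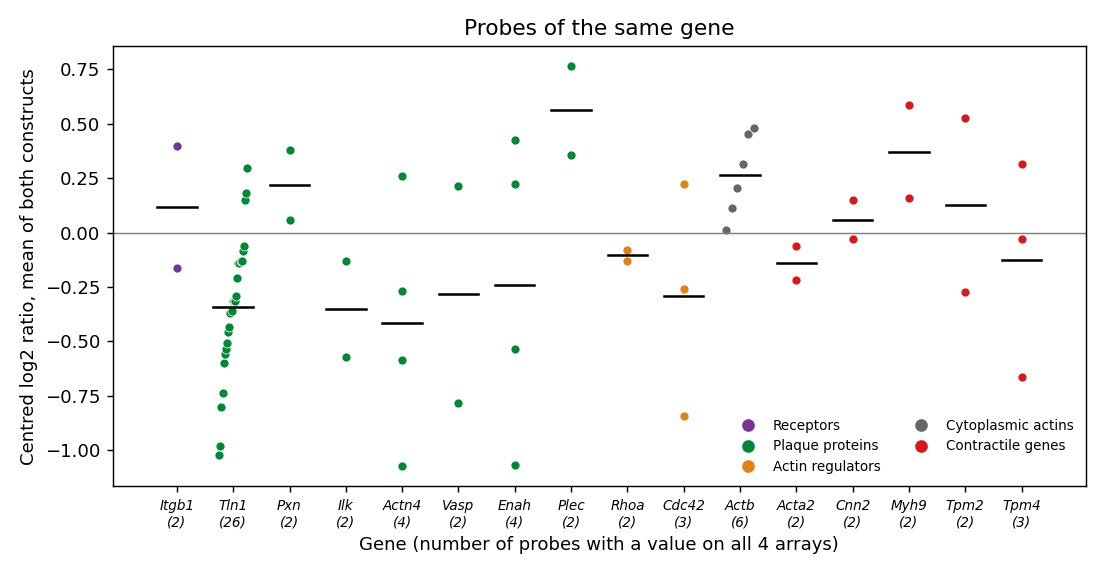
Array-centred log2 ratio, as the mean of both constructs, for each complete probe of the members with 2 or more such probes; points are probes, coloured by role, and the number under each gene is its probe count. The 26 Tln1 probes run from -1.02 to 0.30, the 6 Actb probes all lie above 0, and the Tpm2 probes lie on opposite sides of it.

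Of the 12 members without a value on all 4 arrays, 4 had no probe under their name: Ptk2, the focal adhesion kinase, Actn1, Arpc3 and Cnn1. Another 6 had values on siSelT-5 arrays alone, and 2 lacked some siSelT-1 values. Cfl1, cofilin-1, the main filament-severing protein of non-muscle cells, was at -2.47 and -2.24 on the siSelT-5 arrays. Pfn1, profilin-1, which feeds actin monomers to growing ends, was at -1.71 and -1.99. The integrin chain Itgb3 was at -0.63 and -0.29. Itga6, a laminin-binding chain, was at -0.66 and -0.84 on 1 probe and at -0.09 and -0.80 on the other. Lims1, the PINCH partner of Ilk, was at -1.01 and -0.44 on 1 probe and at -1.28 and -1.54 on the other. Tagln, transgelin, had 2 values of 1 siSelT-5 array, -1.42 and -0.68.

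These low values must be read against their kind. The 7460 probes with values on both siSelT-5 arrays and on no siSelT-1 array had a median of -1.03, and 94.1% of them were below 0, while the 7038 complete probes had a siSelT-5 median of -0.02. Lims1, Itga6 and Itgb3 lay within the bulk of such probes. Cfl1 stood at percentile 1.96 among them, Pfn1 at 10.8 and a Src probe at 13.4. These were the lowest of 9 such probes of members without a complete probe. Tln1 probes of the same kind reached down to percentile 4.1, below that of Pfn1. No test was made on them, and a sign below 0 is the rule there. Itgav, the alpha v chain, was at -0.85 on the siSelT-1 array that measured it and at -1.36 and -0.97 with siSelT-5. Src, the adhesion tyrosine kinase, was at -0.24 on a siSelT-1 array, and its 3 probes spread between -2.62 and -0.74 on the siSelT-5 arrays.

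**Figure D5:**
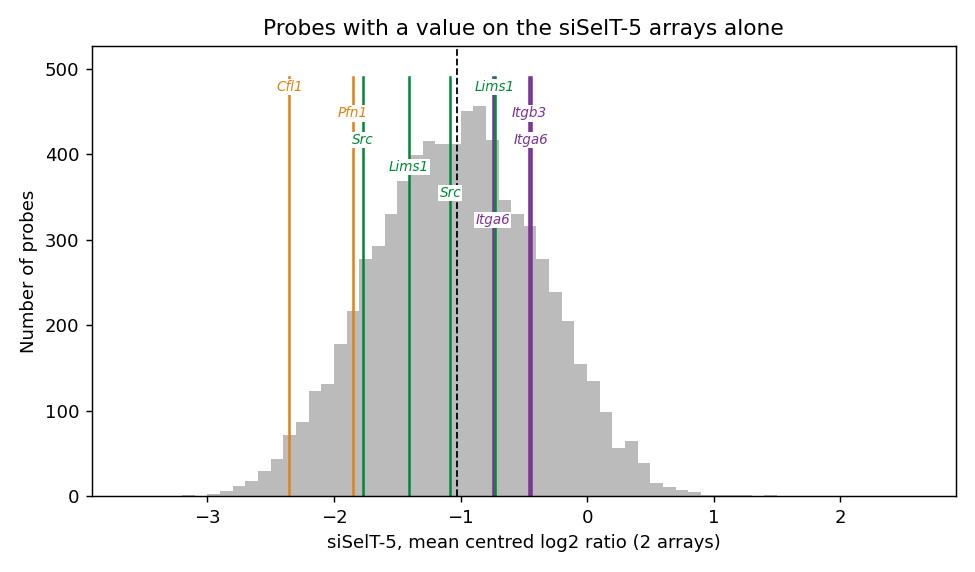
Distribution of the mean centred log2 ratio of the 7460 probes with values on both siSelT-5 arrays and on no siSelT-1 array; the dashed line is their median of -1.03, and coloured lines mark probes of members that had no complete probe. Cfl1 lies in the lower tail, Pfn1 to the left of the median, and Itgb3 and Itga6 to its right.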

How the data were processed

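The deposited table holds 1 log ratio per probe and array, read here as log2; the authors' normalization, background correction and filter on missing values are not given in the sources used here. Per the labels' protocols, Trizol RNA was copied with oligo-dT and coupled to Cy3 or Cy5. Of 22534 probes, 18129 carried 1 gene name; 18041 were matched by Entrez identifier to GRCm38.p6, and 0 symbols changed.

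Each array was centred on its median over the probes complete on all 4 arrays, and a gene was the mean of its complete single-name probes. limma 3.58.1 in R 4.3.3 (lmFit, eBayes) fitted the mean of each construct over 4754 genes. Contrasts were both constructs, each construct, and siSelT-1 minus siSelT-5, two-sided, with Benjamini-Hochberg adjusted p under 0.05 as the threshold. The contrast of both constructs tested the mean of the 2 construct means against the spread within constructs. The SD over 4 arrays printed beside it also holds the distance between constructs, and is a description that did not enter the p. Intervals are 95% limma intervals, unadjusted for the number of genes. The pipeline was tested on simulated data. The number of arrays, 2 per construct, limits the precision, and the spread of vector cultures enters no test.

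Every member was accounted for, with full values for those that passed in any contrast and, where fewer passed, the 2 of each role with the smallest p; from the other pathway lists up to 3 genes with the smallest p were named. The members and lists were chosen with earlier results of these data known. Replicate numbers were not used to pair the arrays in the main fit. Alternatives were centring, scaling, probe summary, filters, variance models, the replicate block, thresholds and leaving out each array.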

Additional observations from a re-analysis of the deposited data

Results flagged for a closer look

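For 8 members every siSelT-1 array lay on one side of 0 and every siSelT-5 array on the other after centring. These are signs of the mean over probes, and no complete probe of Tpm2 or Itgb1 showed them alone. The siSelT-1 minus siSelT-5 differences on the log2 scale were -1.55 for Myl9 (limma, adjusted p = 0.0932), -0.85 for Acta2 (0.106), -0.58 for Tpm2 (0.118; 95% interval -0.94 to -0.21), -0.47 for Tpm4 (0.134; -0.82 to -0.11), -0.36 for Cnn2 (0.195), -0.36 for Itgb1 (0.184), 0.57 for Itgb5 (0.118) and 0.26 for Zyx (0.280; -0.08 to 0.60). None passed the test of the difference over all genes. Opposite signs of either kind were found in 6.73% of all genes with siSelT-1 down and in 6.92% with siSelT-1 up, beside 6 and 2 of the 30 members. A sign against 0 depends on the centring: as deposited, siSelT-5 was at 0.17 for Itgb5 and 0.31 for Zyx, and siSelT-1 was at 0.08 for Itgb1 and 0.02 for Cnn2.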

How the results depend on the processing

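For both constructs together the count of members passed was 12 by limma; it was 5 with a single mean over the 4 arrays, 4 at an adjusted p under 0.01, and 0 to 19 with an array left out. For siSelT-1 the count was 3 (8.9%), and it was 1 centred on all values (6.82%). Scaled arrays gave 13 (33.4%), single probes 7 (7.97% of probes) and array weights 16 (39.6%). With a value on at least 1 array of each construct it was 0 (0.777%), with 13 at an unadjusted p under 0.05. It was 12 at an adjusted p under 0.10 (22.7%) and 0 under 0.01 (0%), with 12 at an unadjusted p under 0.05. For siSelT-5 it was 12, and it was 25 centred on all values, 6 with array weights, 2 at an adjusted p under 0.01, and 3 to 18 with an array left out. For the difference the count was 0 (0.0631%). It was 21 centred on all values (52.8%) and 3 with a common spread (7.95%). At an adjusted p under 0.10 it was 2 (2.17%), Myl9 and Itgbl1.

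The median of receptors was 0.24 as deposited and 0.29 centred on all values, that of plaque genes 0.028 and 0.071, and that of cytoplasmic actins 0.22 and 0.26, or 0.21 with single probes. As deposited, 6 of 30 members changed sign for both constructs and 12 for siSelT-5. Among the members called, signs turned for Flna over both constructs (0.026) and for siSelT-5 for Tln1 (0.14), Actn4 (0.044) and Enah (0.23) when centred on all values, and for Enah (0.025) as deposited. The centring settings differ only in the constant subtracted from each array. Why the medians of the arrays differ was not tested. With an array left out, the lone array of its construct is assumed to vary like the other pair, and the pairs had SDs of 0.148 (siSelT-1) and 0.345 (siSelT-5). Same-numbered arrays of the constructs correlated at 0.0758 in their deviations, which cannot settle whether they shared a harvest or vector RNA. The replicate block gave 15, 3, 13 and 2 members for the 4 contrasts, beside 44.8%, 11.3%, 42.6% and 1.6% of all genes. Of the calls made without it, Plec (siSelT-1) and Enah (siSelT-5) were lost. Of the 12 calls for siSelT-5, 4 were lost with scaled arrays and 4 with a common spread; of the 12 for both constructs, Flna and Actb were lost with a common spread.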
